A study of Rattus norvegicus with 6 samples.

Results

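The matrix genes described here are 60 genes for the fibrillar and interstitial collagens, the basement membrane, the small proteoglycans, the adhesive and matricellular proteins, the elastic fibres and the enzymes that process collagen. They were listed by symbol and function, by a rule that sets no threshold on the measured values, and were looked for among the 26419 transcript rows of an array of skeletal muscle RNA from newborn rats. A RefSeq gene table gave a symbol to 9747 rows (36.9%), and through it 29 of the 60 genes had a row, each a single one. The rows with a symbol and the rows without one made up the 26299 features that were tested. The 6 samples were 1-day-old male Wistar pups, 3 of lower birth weight (LBW, percentiles 5 to 25) and 3 newborn controls of average birth weight (ABW). For the ABW pups one label gives percentiles 25 to 75 and the treatment description gives 50 to 75. The labels name no allele and no treatment, and the groups differ by weight at birth. The soleus and gastrocnemius of a pup were used together, the RNA was labelled with one dye (Cy3), and each pup had its own NimbleGen array. The labels call the 3 pups of a group biological replicates and do not say which of them shared a litter.

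The interstitial matrix of muscle is built by fibroblasts around fibres and bundles of fibres. Collagen chains are hydroxylated and folded in the endoplasmic reticulum, trimmed outside the cell, assembled into fibrils whose width is tuned by small leucine-rich proteoglycans, and cross-linked by lysyl oxidases. Each muscle fibre is also wrapped in a basement membrane of laminin, type IV collagen, nidogen and perlecan, which integrins and the dystroglycan complex connect to the cytoskeleton, while elastic fibres of elastin on a fibrillin scaffold let the tissue recoil. The growth of muscle after birth goes along with remodelling of all of these layers.

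The roles were unequally covered. Of the fibrillar collagens 4 of 6 had a row, of the proteoglycans 4 of 6, of the adhesive and matricellular proteins 7 of 13, of the elastic fibre genes 5 of 8 and of the collagen processing genes 8 of 11. Of the basement membrane genes only 1 of 12 had a row, the laminin chain *Lamb2*, and of the interstitial collagens 0 of 4, so that the values describe the fibrillar matrix and say almost nothing of the basement membrane. Not analysed here were *Col1a1* and *Col5a2*, the interstitial collagens *Col6a1*, *Col6a2*, *Col6a3* and *Col12a1*, and the basement membrane genes *Col4a1*, *Col4a2*, *Lama2*, *Lama4*, *Lamb1*, *Lamc1*, *Nid1*, *Nid2*, *Hspg2*, *Col15a1* and *Col18a1*. The same holds for *Ogn* and *Vcan* among the proteoglycans, *Postn*, *Tnc*, *Thbs2*, *Thbs4* and *Tgfbi* among the adhesive proteins, *Fbln1*, *Fbln2* and *Mfap5* of the elastic fibres, and *Lox*, *P4ha2* and *Bmp1* among the processing enzymes. *Tnn*, the remaining adhesive protein, had no row through the table and is described apart from the 29 genes. Rows for these genes may be among the 16672 that the table left without a symbol, under older accessions, so that the counts below hold for the 29 genes alone.

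The values are log2 intensities that the authors had normalized between arrays. Array medians ran from 8.70 to 8.76, and all values lay between 4.58 and 15.49. The labelled tissue matched its markers. Of 12 skeletal muscle markers 8 had a row, led by the actin *Acta1* at 15.15 to 15.41 in the 6 pups, and their median difference between the groups was 0.03. Single pups stood apart from their groups in markers of other tissues. For 10 of 12 osteoblast markers with a row, the median value relative to the ABW mean was 2.61 in LBW 1 and 3.96 in LBW 3, compared to 0.30 in LBW 2 and -0.16 to 0.12 in the ABW pups. For 6 of 7 adipocyte markers with a row, this median was -1.27 in LBW 3 and -0.27 and -0.26 in the other LBW pups, and -0.66 in ABW 1 and 0.35 and 0.17 in the other ABW pups. Calls of matrix genes are given with single pups left out, and those that depend on LBW 2 are therefore also given without it.

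As a group, the 29 matrix genes with a row had nearly equal levels in LBW and ABW pups. The mean was higher in LBW pups for 14 of the 29 genes and lower for 15 (44.4% of all features had a higher mean), and 24 of the 29 differed by less than 0.2 on the log2 scale. The median log2 difference, LBW minus ABW, was -0.0004, compared to -0.02 over all features, and the median size of a difference regardless of sign was 0.11, compared to 0.13. Each pup was then set against the ABW mean, gene by gene. By its median over the 29 genes LBW 1 stood at 0.06, LBW 2 at -0.06 and LBW 3 at -0.02, while the ABW pups stood at 0.00, 0.01 and 0.03. The LBW pups lay on both sides of the ABW pups. In bulk muscle, the number of matrix-producing cells and the RNA per cell cannot be told apart, for level genes as for those that differed.

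**Figure D1:**
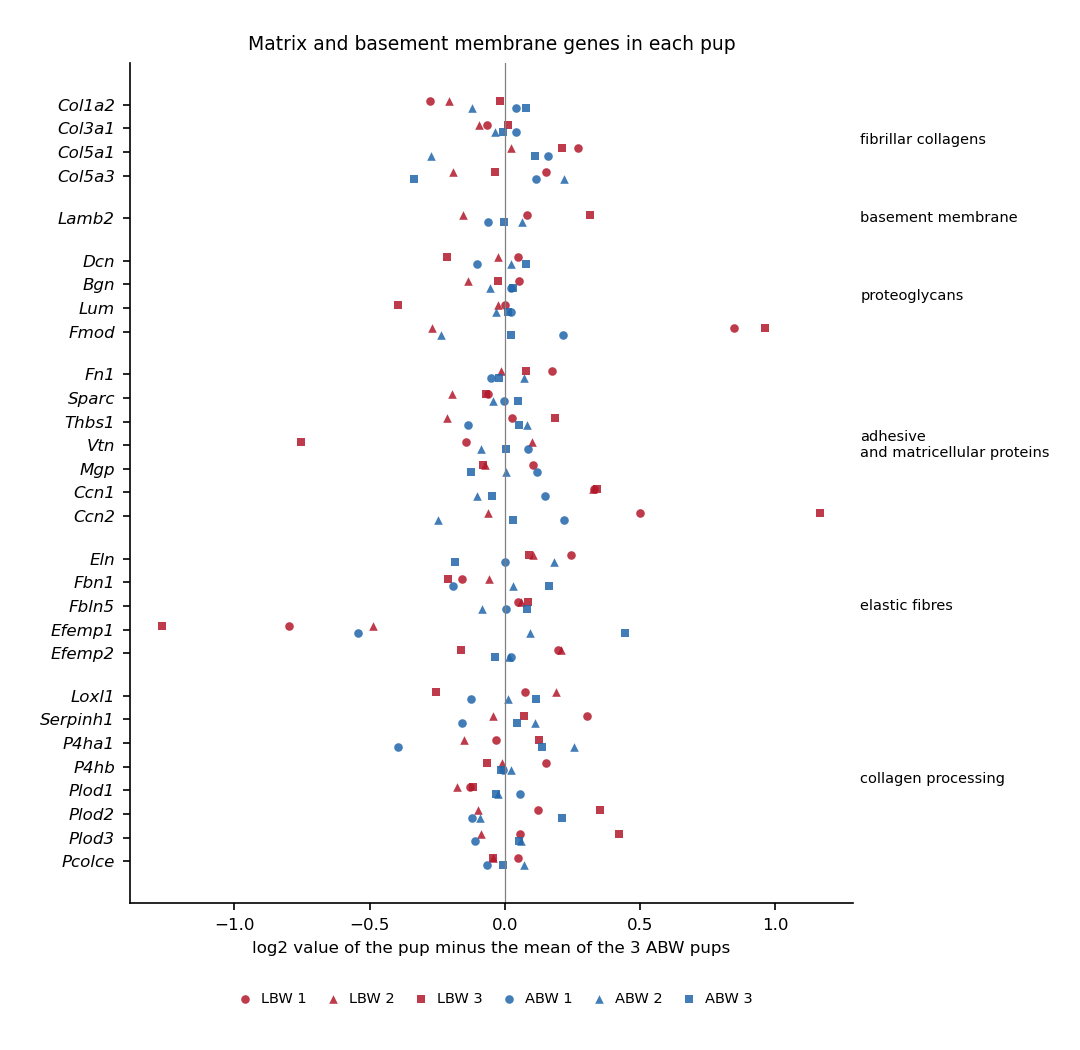
Log2 value of each of the 29 matrix genes in each pup, relative to the mean of the 3 ABW pups (LBW red, ABW blue, symbol shape for the pup's number), arranged by role. Most pups lie close to 0 for most genes, while *Efemp1*, *Ccn2* and *Fmod* spread over more than 1 log2 unit between the lowest and highest pup.

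A gene was called where limma gave an unadjusted p below 0.05 and the fold change was at least 1.5 in either direction, the thresholds that the study used. Among the 29 genes, 0 were called higher and 1 was called lower in LBW pups, *Efemp1*. Over all features, 627 (2.38%) were called higher and 497 (1.89%) lower, or 4.27% in either direction. At an unadjusted p below 0.05 with no criterion on the fold change, *Ccn1* was higher and *Efemp1* lower, compared to 5.63% of all features higher and 6.73% lower. After Benjamini-Hochberg adjustment over all features 0 of the 26299 had an adjusted p below 0.05 by limma, and the lowest adjusted p among the matrix genes was 0.302. The LBW and ABW values did not overlap in 1 gene with LBW above (*Ccn1*; 7.27% of all features) and in 2 genes with LBW below (*Sparc* and *Plod1*; 10.1% of all features), or 17.4% of all features in either direction.

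The intervals bound how large a difference could have been missed. For 25 of the 29 genes (86.2%) the whole 95% interval of the log2 difference lay inside 1.5-fold in either direction, compared to 66.6% of all features. The exceptions were *Fmod*, *Vtn*, *Ccn2* and *Efemp1*. When 1 pup was left out at a time, the number of intervals inside 1.5-fold was between 20 and 24. The matrix genes include many strong signals, and 11 of the 29 had a mean of at least 14. The intervals of all 11 lay inside 1.5-fold, and so did those of 99% of the 572 features with such a mean, of which 0% were called. The deposited table gives no mark of saturated spots, and whether changes in the strongest signals are compressed was not tested. Among the other 18 genes, 14 intervals lay inside 1.5-fold and the log2 differences ran from -0.85 to 0.54.

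**Figure D2:**
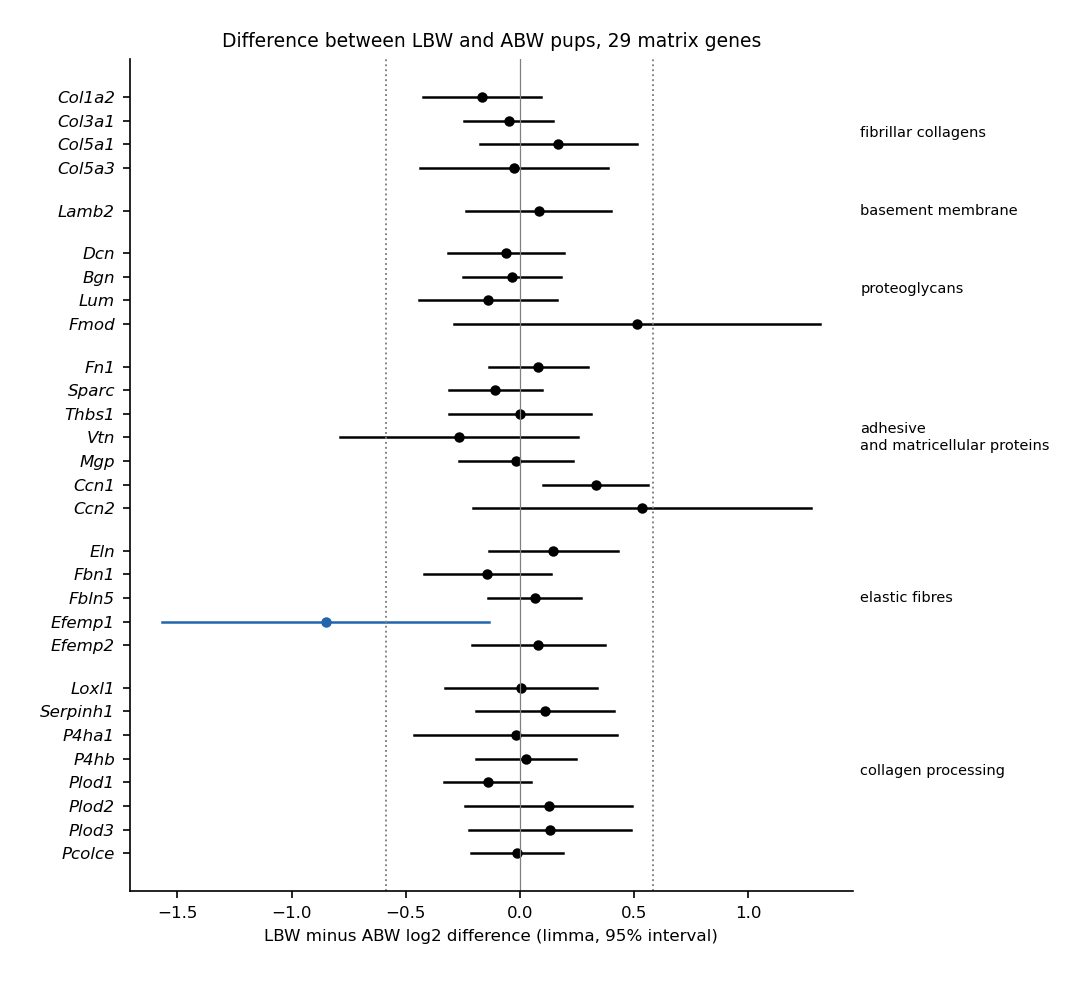
Log2 difference between LBW and ABW means for each matrix gene (point) with its 95% interval from limma (line), with dotted lines at 1.5-fold in either direction and blue for a gene called lower. 25 of 29 intervals lie between the dotted lines, and only *Efemp1* is called.

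The fibrillar collagens form the load-bearing fibres of the tissue. *Col1a2* (NM_053356), the second chain of type I collagen, had values of 14.87, 14.94 and 15.13 in LBW 1, LBW 2 and LBW 3 and of 15.19, 15.03 and 15.23 in ABW 1, ABW 2 and ABW 3. LBW 1 and LBW 2 were the lowest of the 6 pups, but LBW 3 lay above ABW 2. The means were 14.98 ± 0.13 and 15.15 ± 0.11 (SD, n = 3 each), and the log2 difference of -0.17 (SE 0.11, 95% interval -0.42 to 0.09) had an adjusted p of 0.576 by limma.

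*Col3a1* (NM_032085), the chain of type III collagen, which is abundant in young and compliant tissue, was at 14.83, 14.80 and 14.90 in the LBW pups and at 14.94, 14.86 and 14.89 in the ABW pups. The groups overlapped, and its range over the 6 pups, 0.14, was the narrowest of the 29 genes. LBW pups differed from ABW pups by -0.05 on the log2 scale (interval -0.24 to 0.14, limma adjusted p 0.841). Type V collagen is incorporated into type I fibrils and starts their assembly. *Col5a1* (NM_134452) differed by 0.17 (interval -0.18 to 0.51) with its lowest value, 14.04, in ABW 2, and *Col5a3* (NM_021760) by -0.03 (interval -0.44 to 0.39) with its lowest value, 11.69, in ABW 3. Of the 4 chains 0 were called.

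The only basement membrane gene with a row, *Lamb2* (NM_012974), codes for the laminin chain that is concentrated at the neuromuscular junction. It was at 11.72, 11.49 and 11.95 in the LBW pups and at 11.58, 11.70 and 11.64 in the ABW pups. LBW 2 was the lowest and LBW 3 the highest pup, and the ABW pups lay between them. This gave a log2 difference of 0.08 (SE 0.13, interval -0.24 to 0.40, limma adjusted p 0.843).

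Among the small leucine-rich proteoglycans, which bind collagen fibrils, decorin, biglycan and lumican varied little. *Dcn* (NM_024129) was at 15.03, 14.96 and 14.77 in the LBW pups and at 14.88, 15.01 and 15.06 in the ABW pups, a log2 difference of -0.06 (interval -0.32 to 0.19). *Bgn* (NM_017087) differed by -0.04 (interval -0.25 to 0.18) and *Lum* (NM_031050) by -0.14 (interval -0.44 to 0.16), with LBW 3 lowest for *Dcn* and *Lum*.

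Fibromodulin, *Fmod* (NM_080698), which is prominent in tendon and cartilage, was the exception in this group. It was at 13.76, 12.64 and 13.88 in the LBW pups and at 13.13, 12.68 and 12.94 in the ABW pups. LBW 1 and LBW 3 lay above all ABW pups, while LBW 2 was the lowest of the 6. The means were 13.43 ± 0.68 and 12.91 ± 0.23, and the log2 difference of 0.51 (SE 0.33, interval -0.29 to 1.32) gave an adjusted p of 0.579 by limma and a p of 0.4 in a 2-sided exact permutation test, which with 3 pups against 3 cannot go below 0.1. Without LBW 2 the difference was 0.91 and the gene was called (unadjusted p 0.00152, limma). With any other pup left out it was not called, and the difference ran from 0.29 (without LBW 3) to 0.62 (without ABW 1).

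Adhesive proteins link cells to collagen, and matricellular proteins signal to cells from within the matrix. *Sparc* (NM_012656), a collagen-binding matricellular protein that is made by fibroblasts and by osteoblasts, gave a strong signal. Its values were 15.12, 14.98 and 15.11 in the LBW pups and 15.18, 15.13 and 15.23 in the ABW pups. All LBW pups lay below all ABW pups, though LBW 1 and ABW 2 differed by little. Their log2 difference of -0.11 was small (SE 0.08, interval -0.31 to 0.10, limma adjusted p 0.649, exact permutation p 0.1). Fibronectin, *Fn1* (NM_019143), on which cells assemble new collagen, was at 14.28, 14.09 and 14.18 in the LBW pups and at 14.05, 14.17 and 14.08 in the ABW pups, with overlapping groups and a log2 difference of 0.08 (interval -0.14 to 0.30). *Thbs1* (NM_001013062), which activates latent TGF-beta, differed by -0.00 (interval -0.31 to 0.31), and *Mgp* (NM_012862), an inhibitor of calcification, by -0.02 (interval -0.27 to 0.23). *Vtn* (NM_019156), the adhesive plasma protein vitronectin, had the lowest values of the 29 rows, though above the array medians. Its difference of -0.27 (interval -0.79 to 0.25) followed from LBW 3 at 8.85, the other pups being between 9.46 and 9.71.

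*Ccn1* and *Ccn2*, also known as Cyr61 and Ctgf, are secreted matricellular proteins and textbook target genes of the YAP and TEAD factors, which respond to mechanical tension. TEAD factors bind the MCAT motif, CATTCC on one strand and GGAATG on the other. The 250 bases before the annotated start of both genes, and of *Efemp1*, are shown because these were the genes with the largest differences or the lowest p-values apart from *Fmod*. The sequences are RefSeq's for the assembly GRCr8, on the strand of each gene from 5′ to 3′, and capitals mark the motif on either strand.
Ccn2, chr1:22624615-22624864, minus strand: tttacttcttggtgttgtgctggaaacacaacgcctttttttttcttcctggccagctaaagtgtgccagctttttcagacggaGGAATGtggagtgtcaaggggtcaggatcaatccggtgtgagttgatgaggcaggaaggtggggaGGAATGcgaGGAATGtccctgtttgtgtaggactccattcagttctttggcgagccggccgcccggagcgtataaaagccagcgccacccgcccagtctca
Ccn1, chr2:237225690-237225939, minus strand: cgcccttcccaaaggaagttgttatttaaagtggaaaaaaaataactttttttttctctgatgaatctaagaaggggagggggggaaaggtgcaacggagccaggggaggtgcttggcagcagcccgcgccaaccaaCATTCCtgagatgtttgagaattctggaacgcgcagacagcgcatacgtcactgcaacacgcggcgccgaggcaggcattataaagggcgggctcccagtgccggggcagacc
Efemp1, chr14:106811614-106811863, plus strand: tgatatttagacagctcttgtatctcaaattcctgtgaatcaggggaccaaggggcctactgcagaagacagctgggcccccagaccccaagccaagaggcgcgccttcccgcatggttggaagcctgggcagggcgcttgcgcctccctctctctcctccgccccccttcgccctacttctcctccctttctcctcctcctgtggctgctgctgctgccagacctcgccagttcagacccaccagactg

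The window of *Ccn2* held 3 matches, that of *Ccn1* 1 and that of *Efemp1* 0. Of the 33469 windows of the same length in the RefSeq table, 4037 (12.1%) held the motif and 26 (0.0777%) held at least 3 matches. Windows were found for 22 of the 29 matrix genes, and 6 of them held it, those of *Ccn1*, *Ccn2*, *Loxl1*, *Sparc*, *Thbs1* and *Vtn*. A match is a run of letters and not a measured binding site.

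*Ccn1* (NM_031327) was at 12.24, 12.24 and 12.25 in the LBW pups and at 12.06, 11.81 and 11.87 in the ABW pups. All 3 LBW pups lay above all ABW pups and close to each other. The means were 12.25 ± 0.01 and 11.91 ± 0.13, and the log2 difference of 0.33 (SE 0.10, interval 0.10 to 0.56), 1.26-fold, had an unadjusted p of 0.012 and an adjusted p of 0.302 by limma, and an exact permutation p of 0.1. It remained between 0.28 and 0.41 with any 1 pup left out, each time with an unadjusted p below 0.05, and in no setting reached 1.5-fold.

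*Ccn2* (NM_022266) was at 11.06, 10.50 and 11.73 in the LBW pups and at 10.78, 10.31 and 10.59 in the ABW pups. LBW 1 and LBW 3 lay above all ABW pups, and LBW 2 lay between ABW 2 and ABW 3. The log2 difference was 0.54 (SE 0.31, interval -0.20 to 1.27, 1.45-fold, limma adjusted p 0.531, exact permutation p 0.3). It was 0.83 without LBW 2, where the gene was called (unadjusted p 0.0153, limma), and 0.22 without LBW 3.

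The pups in which *Fmod* and *Ccn2* were high were also those with high values of bone and cartilage markers. The summed linear intensity of the 10 osteoblast markers was 35847, 4548 and 58042 in LBW 1, LBW 2 and LBW 3, compared to 2388, 2520 and 2891 in ABW 1, ABW 2 and ABW 3, with *Ibsp* as the largest part of the sum over the pups. Of the 10 markers, 6 were called higher (2.38% of all features), *Bglap*, *Ibsp*, *Spp1*, *Alpl*, *Phex* and *Smpd3*, and with a pup left out between 3 (without LBW 1) and 10 (without LBW 2). Of 14 cartilage markers 6 had a row, and their summed intensity was 19641, 12051 and 24682 in the LBW pups and 14261, 11399 and 14181 in the ABW pups. *Col2a1* gave the highest mean signal among them, and 1 of the 6, *Acan*, was called higher, again beside 2.38% of all features. Without LBW 2 there were 3 calls, and without any other pup 0. Of 7 osteoclast markers 5 had a row, with sums of 14728, 8436 and 25011 in the LBW pups and 8907, 9603 and 9376 in the ABW pups. *Ctsk* led these by signal, and 2 of the 5, *Acp5* and *Mmp9*, were called higher, compared to the same 2.38%. Here too there were 3 calls without LBW 2 and 0 without any other pup. The only tendon marker with a row of 5 listed, *Tnmd*, was at 13.03, 12.39 and 13.00 in the LBW pups and at 12.97, 12.54 and 12.55 in the ABW pups, with LBW 1, LBW 3 and ABW 1 as the high pups. The part of these tissues in the values of *Fmod* and *Ccn2* was not tested.

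One of the genes without a matched row can be read under another name. *Tnn* codes for tenascin N, a matricellular glycoprotein made in bone-forming tissue, and the study gives this symbol to the row XM_001073586. That row was at 9.33, 6.33 and 9.66 in the LBW pups and at 5.98, 6.10 and 5.89 in the ABW pups. All LBW pups lay above all ABW pups, LBW 2 by little and LBW 1 and LBW 3 by more than 3 log2 units. The means were 8.44 ± 1.84 and 5.99 ± 0.11, and the log2 difference of 2.45 (SE 0.84, interval 0.44 to 4.46) had an unadjusted p of 0.024 and an adjusted p of 0.339 by limma, past both thresholds of a call. The call was kept without LBW 2 (3.51) and lost without LBW 1 (2.01), LBW 3 (1.84), ABW 1 (2.44), ABW 2 (2.51) or ABW 3 (2.40) and with the methods' test. The symbol is known here because the study singled the row out by its change on these arrays, so it is a description outside the 29 genes and no independent evidence of a direction.

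**Figure D3:**
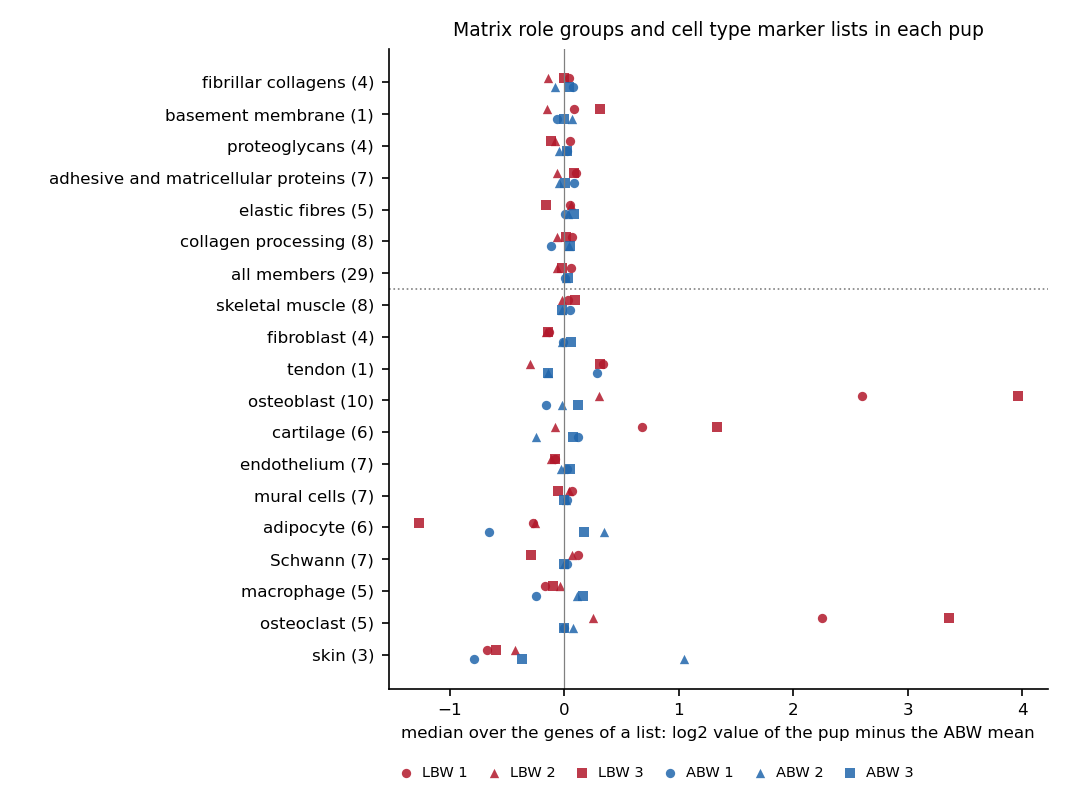
Median over the genes of each role group (upper part) and each cell type marker list (lower part) of the log2 value in each pup relative to the ABW mean, with the number of genes with a row in brackets. The medians of all 29 matrix genes lie between -0.06 and 0.06, whereas the osteoblast markers reach 2.61 in LBW 1 and 3.96 in LBW 3.

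The elastic fibre genes included the only call. *Efemp1* (NM_001012039) codes for fibulin-3, a secreted glycoprotein found with elastic fibres and in connective tissue and fascia. It was at 11.40, 11.71 and 10.94 in the LBW pups and at 11.66, 12.30 and 12.65 in the ABW pups. The groups overlapped, because ABW 1 lay just below LBW 2, and the 1.71 log2 units between LBW 3 and ABW 3 were the widest range of the 29 genes. The means were 11.35 ± 0.39 and 12.20 ± 0.50, a log2 difference of -0.85 (SE 0.30, interval -1.57 to -0.14), so that LBW pups were at 0.554 of the ABW level (unadjusted p 0.0264, adjusted p 0.347 by limma, exact permutation p 0.2). With 1 pup left out the difference ran from -1.12 to -0.63. The unadjusted p was above 0.05 without LBW 1 (difference -0.88), LBW 3 (-0.64), ABW 2 (-0.80) or ABW 3 (-0.63) and with the methods' test, but not without LBW 2 (-1.03) or ABW 1 (-1.12).

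Among adipocyte markers, *Adipoq* alone ranked the pups as *Efemp1* did. Of 7 such markers 6 had a row, all with a lower mean in LBW pups, and only *Lep* was called, compared to 1.89% of all features called lower. With a pup left out there were 3 calls without ABW 1, 1 without LBW 2 and 0 otherwise. Their summed linear intensity was 44894, 45189 and 36455 in LBW 1, LBW 2 and LBW 3 and 43980, 60246 and 57776 in ABW 1, ABW 2 and ABW 3, with *Fabp4* as the gene of the highest mean signal. *Adipoq* was at 12.83, 13.02 and 11.56 in the LBW pups and at 12.91, 13.66 and 13.68 in the ABW pups, so that the pups from lowest to highest were LBW 3, LBW 1, ABW 1, LBW 2, ABW 2 and ABW 3, the same order as for *Efemp1*. None of the other markers with a row had this order. LBW 1 was above ABW 3 for *Lipe* and above ABW 1 for *Cfd* and *Cidec*. LBW 1 was the lowest pup for *Fabp4*, and ABW 1 was above LBW 2 for *Lep*. Fibroblast markers were thinly covered, with a row for 4 of 10 and a median difference of -0.17. Of the 4, 0 were called, and with a pup left out only *Dpp4*, lower, without ABW 1. *Dpp4* was at 10.55, 10.64 and 9.20 in the LBW pups and at 9.66, 11.32 and 11.36 in the ABW pups. *Gsn* was higher in LBW pups by 0.28 with an unadjusted p below 0.05 by limma (5.63% of all features). All LBW pups lay above all ABW pups for *Gsn* and below them for *Mfap4* (-0.20), compared to 7.27% and 10.1% of all features. The summed intensity of these 4 was 50113, 48033 and 48061 in the LBW pups and 50336, 52407 and 55577 in the ABW pups, led by *Mfap4*. The part of either cell type in the difference of *Efemp1* was not tested.

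The other elastic fibre genes had intervals inside 1.5-fold. *Eln* (NM_012722), elastin itself, was at 11.89, 11.75 and 11.74 in the LBW pups and at 11.65, 11.83 and 11.46 in the ABW pups, a log2 difference of 0.15 (interval -0.14 to 0.43, limma adjusted p 0.658). The groups overlapped through ABW 2. *Fbn1* (NM_031825), the fibrillin of the microfibril scaffold, differed by -0.14 (interval -0.42 to 0.13), *Fbln5* (NM_019153), which tethers elastin to cells, by 0.06 (interval -0.14 to 0.27), and *Efemp2* (NM_001005907), the close relative of *Efemp1* that recruits lysyl oxidase, by 0.08 (interval -0.21 to 0.37).

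Collagen processing enzymes and chaperones differed little between the groups, with log2 differences from -0.14 to 0.13. Of their 8 intervals 8 lay inside 1.5-fold, compared to 66.6% of all features. By the methods' test or with a pup left out, those of *P4ha1*, *Plod2* or *Plod3* lay outside in some settings. *Serpinh1* (NM_017173), the collagen chaperone HSP47, was at 13.97, 13.63 and 13.74 in the LBW pups and at 13.51, 13.78 and 13.72 in the ABW pups, with ABW 1 lowest and a log2 difference of 0.11 (interval -0.19 to 0.41). *P4ha1* (NM_172062), the catalytic subunit of prolyl hydroxylase, was at 11.36, 11.24 and 11.52 in the LBW pups and at 11.00, 11.65 and 11.53 in the ABW pups. Here the ABW pups held both the lowest and the highest value, and the difference was -0.02 (interval -0.46 to 0.43). Its partner *P4hb* (NM_012998) differed by 0.03 (interval -0.19 to 0.24).

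The lysyl hydroxylases, which prepare collagen for cross-linking, did not share a direction. *Plod1* (NM_053827) was at 13.55, 13.51 and 13.56 in the LBW pups and at 13.74, 13.66 and 13.65 in the ABW pups. All LBW pups lay below all ABW pups, but the log2 difference was only -0.14 (SE 0.08, interval -0.33 to 0.05, limma adjusted p 0.522, exact permutation p 0.1), and *Plod2* (NM_175869) and *Plod3* (NM_178101) each differed by 0.13 with overlapping groups. The lysyl oxidase *Loxl1* (NM_001012125), needed for elastic fibres, differed by 0.00 (interval -0.33 to 0.34), and *Pcolce* (NM_019237), the enhancer of procollagen trimming, by -0.01 (interval -0.22 to 0.19).

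**Figure D4:**
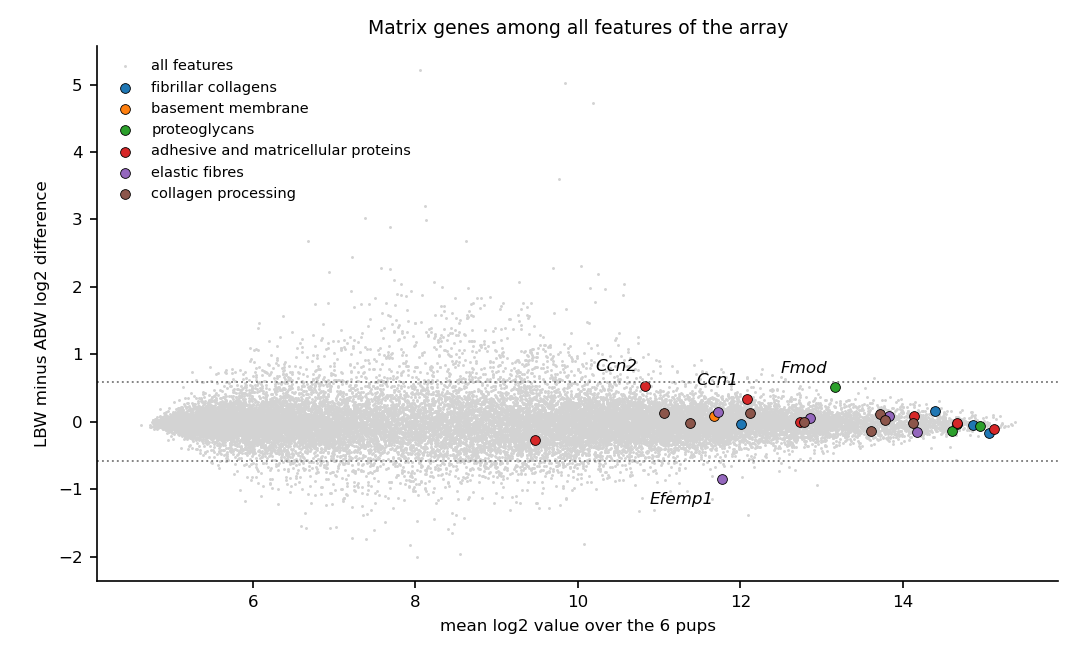
Log2 difference between LBW and ABW means against the mean log2 value over the 6 pups, for all 26299 features (grey) and the 29 matrix genes (coloured by role), with dotted lines at 1.5-fold. The 11 matrix genes with a mean of at least 14 lie between -0.17 and 0.17, and *Efemp1* is the only one beyond a dotted line.

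A further 126 genes of the same biology were listed by function, and 53 of them had a row. Their mean was higher in LBW pups for 35 and lower for 18, and the median log2 difference was 0.11, compared to -0.02 over all features. Of the 53, 0 were called higher and 1 lower (*Smoc1*), compared to 2.38% and 1.89% of all features. Among them 10 had LBW values above all ABW values and 2 below (*Aspn*, -0.10, and *Mfap4*, -0.20), compared to 7.27% and 10.1% of all features. At an unadjusted p below 0.05, 5 were higher and 1 was lower, compared to 5.63% and 6.73% of all features. The count of 5 was 9 without LBW 2, 8 by the methods' test, and 2 without LBW 1 or without ABW 3. Of the 20 other collagens 2 had a row and 0 were called, and of the 29 other matrix proteins 16 had a row and 0 were called. The largest difference of the 53 was that of *Comp*, which is also among the cartilage markers (0.83, unadjusted p 0.214, limma). Without LBW 2 it was 1.45 and past both thresholds (unadjusted p 0.0151, limma), and without LBW 3 it was 0.24. *Sdc4* and *Itgb3* were also past both without LBW 2. In that setting 1546 of all features were called, compared to 1124 with all pups.

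Receptors that hold cells to the matrix accounted for 4 of these 5 genes. Of 29 listed receptors 13 had a row, with a higher mean in LBW pups for 9 and a lower one for 4 and a median log2 difference of 0.18. Of the 13, 0 were called, 4 were higher and 0 lower at an unadjusted p below 0.05, and 5 had all LBW pups above all ABW pups. Over all features the shares were 2.38% called higher, 5.63% higher and 6.73% lower at that p, and 7.27% with all LBW pups above. The 4 genes were *Sdc2*, *Sdc3*, *Sdc4* and *Ddr1*, and their lowest adjusted p was 0.286 by limma. The count of 4 was 1 without LBW 1 or without ABW 3 and 2 without ABW 2.

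Syndecans are membrane proteoglycans that bind fibronectin and growth factors alongside integrins. *Sdc4* (NM_012649), found at focal adhesions and on muscle stem cells, was at 10.90, 10.76 and 11.29 in the LBW pups and at 10.53, 10.36 and 10.32 in the ABW pups. The groups did not overlap, and LBW 3 was the highest. The log2 difference was 0.58 (SE 0.15, interval 0.21 to 0.95), 1.49-fold and so just short of the fold criterion, with an unadjusted p of 0.0079 and an adjusted p of 0.286 by limma. It passed the criterion without LBW 1 (0.62), LBW 2 (0.69) or ABW 1 (0.64).

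*Sdc3* (NM_053893) was at 12.07, 11.79 and 11.85 in the LBW pups and at 11.72, 11.38 and 11.35 in the ABW pups (log2 difference 0.42, SE 0.14, limma adjusted p 0.325), and *Sdc2* (NM_013082) was higher by 0.22 (SE 0.08, adjusted p 0.348), both without overlap. *Sdc1* (NM_013026) was not, with a difference of -0.07 (interval -0.53 to 0.40). *Ddr1* (NM_013137), a collagen-binding receptor tyrosine kinase, differed by 0.31 (SE 0.11, adjusted p 0.344), and *Itgb1* (NM_017022), the common beta subunit of the collagen, laminin and fibronectin integrins, by 0.18 (SE 0.08, interval -0.00 to 0.37, adjusted p 0.409), again with all LBW pups above all ABW pups. *Itgb3* (NM_153720), the beta subunit of the vitronectin receptor, differed by 0.46 with an unadjusted p of 0.163 and overlapping groups. It was 0.70 and past both thresholds without LBW 2 (unadjusted p 0.048, limma), and 0.18 without LBW 3.

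**Figure D5:**
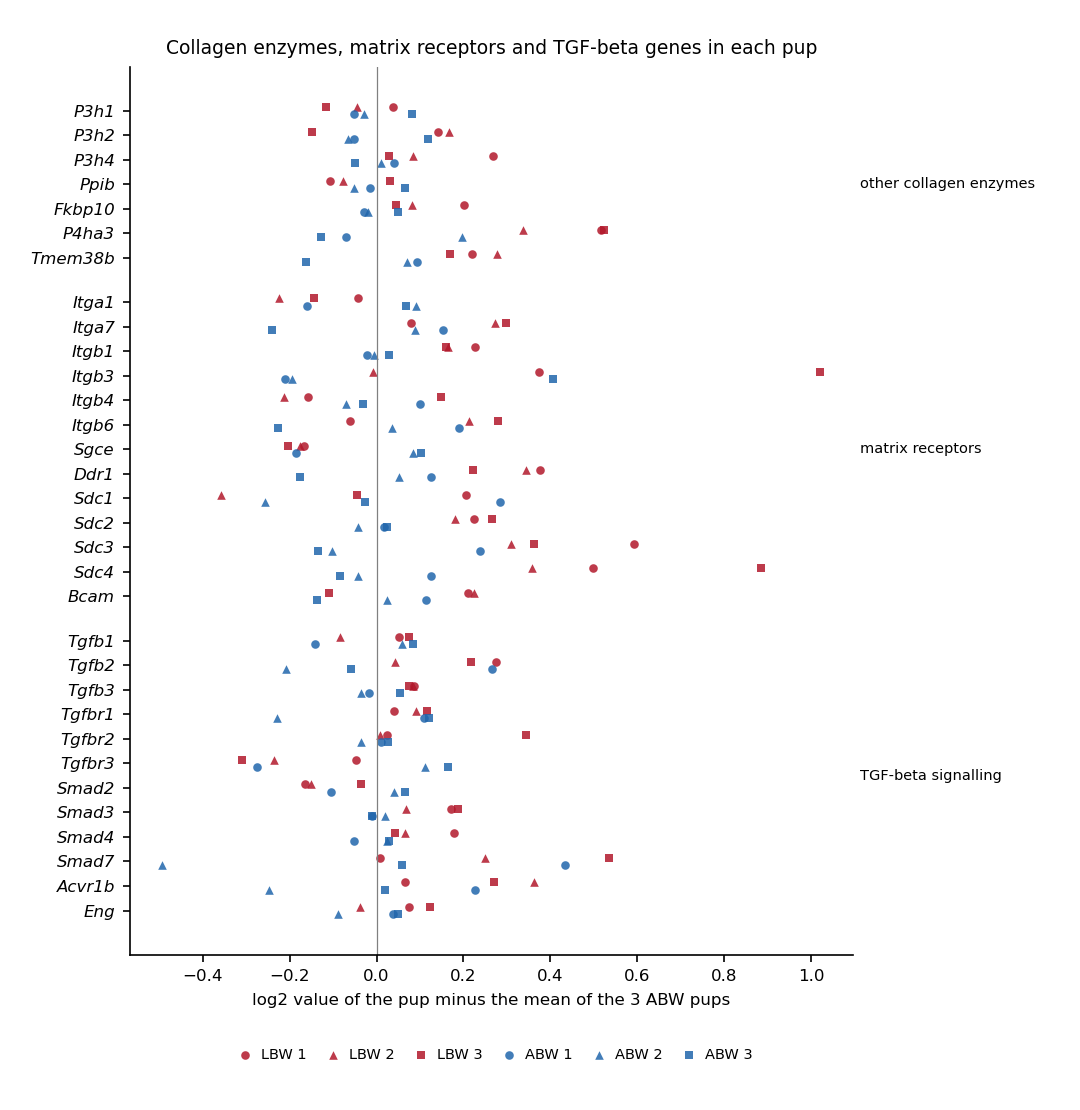
Log2 value in each pup relative to the ABW mean for the further collagen processing genes (labelled as enzymes, though not all are), matrix receptors and TGF-beta signalling genes with a row (LBW red, ABW blue, symbol shape for the pup's number). All LBW pups lie to the right of all ABW pups for *Sdc2*, *Sdc3*, *Sdc4*, *Ddr1*, *Itgb1*, *P4ha3*, *Tmem38b*, *Tgfb3*, *Smad3* and *Smad4*.

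TGF-beta is the principal inducer of matrix genes in fibroblasts. Of 15 listed genes of its pathway 12 had a row, and 10 of them had a higher mean in LBW pups (44.4% of all features), with a median log2 difference of 0.09. The ligand *Tgfb1* differed by 0.01. Of the 12, 0 were called and 0 had an unadjusted p below 0.05 by limma, compared to 4.27% and 12.4% of all features, while 3 (*Tgfb3*, *Smad3* and *Smad4*) had all LBW pups above all ABW pups, compared to 7.27% of all features.

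Among 19 further collagen processing genes, not all of them enzymes, 7 had a row. *P4ha3* (NM_198775), another catalytic subunit of prolyl hydroxylase, was at 10.40, 10.22 and 10.41 in the LBW pups and at 9.82, 10.09 and 9.76 in the ABW pups. The groups did not overlap, and the log2 difference was 0.46 (SE 0.12, unadjusted p 0.00711, adjusted p 0.279 by limma). Of 14 further laminins and basement membrane genes 3 had a row. *Smoc1* (NM_001002835), a basement membrane glycoprotein related to SPARC, was at 9.01, 9.46 and 8.65 in the LBW pups and at 9.44, 9.87 and 9.58 in the ABW pups, with LBW 2 just above ABW 1. The log2 difference was -0.59 (SE 0.22, adjusted p 0.367 by limma). The call was lost without LBW 1 (-0.58), LBW 3 (-0.40), ABW 2 (-0.47) or ABW 3 (-0.62) and with the methods' test. *Agrn* (NM_175754), the heparan sulphate proteoglycan that clusters acetylcholine receptors, differed by 0.36 with an unadjusted p of 0.0645.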

How the data were processed

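Single-colour NimbleGen arrays, 1 per pup, measured RNA from the skeletal muscle of 3 LBW and 3 ABW pups. The authors normalized the signals in R with their own scripts and Bioconductor packages, the submitters' processing notes name RMA, and the deposited values are log2 intensities, 1 per transcript and pup. The table holds no background, detection or saturation marks, so that the distance of a weak signal from background is unknown.

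Rows were named by accession from a RefSeq gene table (assembly GRCr8), and rows of a symbol were averaged. LBW and ABW pups were compared by lmFit and eBayes of limma (version 3.58.1, under R 4.3.3), with 2-sided p-values adjusted by the Benjamini-Hochberg method over all 26299 features. The call rule was an unadjusted p below 0.05 with a fold change of at least 1.5. For single genes an exact permutation test over the 6 pups was added. The analysis was tested on simulated data. Precision is limited by the 3 arrays per group. The limma p-values set the group difference against the spread between these pups, moderated over all features. They do not cover a spread between litters, because the litters are not given. The matrix genes, the lists of related genes and markers and the motif were chosen with earlier results of these data known. All 29 matrix genes are named. From the other lists, the called genes and at most 4 with the largest differences were followed through the alternatives, but not all of them are named above. *Tnn*, *Sdc2*, *Itgb1*, *Sdc1* and *Tgfb1*, those of the further 126 genes whose groups did not overlap, and markers outside that rule were added after their values were seen. Some genes of these lists are not reported here.

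Of the remaining marker lists, the median log2 differences were -0.12 for endothelium (7 of 12 genes with a row), 0.02 for mural cells (7 of 8), 0.01 for Schwann cells (7 of 7), -0.08 for macrophages (5 of 7) and -0.59 for skin (3 of 4; 0.02 without ABW 2), with 0 genes called in each, compared to 4.27% of all features. At an unadjusted p below 0.05, 2 endothelial genes (*Emcn* and *Esam*) and 1 Schwann cell gene (*S100b*) were lower and 1 mural cell gene (*Cspg4*) was higher, compared to 6.73% and 5.63% of all features. With 1 pup left out, only *S100b* of these lists was called, lower, without LBW 2 or without ABW 1. The Schwann cell median was -0.15 without LBW 1, and the macrophage median was -0.205 without ABW 1.

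Alternatives were to use the replicate number as a block, to leave out each pup and to normalize by quantiles. Others were to centre arrays on their median, to drop the dimmest 25% of rows and to let the variance follow intensity. The variance was also fitted robustly, the arrays were weighted, and the highest or each single row of a symbol was used. A fold change of at least 2 was asked for, and the methods' test (Student's, with equal variances) was applied. The paper names Student's test in its general statistics and names no test for the array comparison.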

Additional observations from a re-analysis of the deposited data

How the results depend on the processing

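Of all features 1124 were called, compared to 584 by the methods' test, 335 at a fold change of at least 2, and 798 (without LBW 1) to 1546 (without LBW 2) with 1 pup left out. Adjusted over all features, 125 passed without LBW 2 and 0 in each other setting. The count of matrix genes called higher was 0 to 2 with 1 pup left out, 2 being *Fmod* and *Ccn2* without LBW 2. The count called lower was 0 to 1 with 1 pup left out, and 0 by the methods' test or at a fold change of at least 2. Matrix genes at an unadjusted p below 0.05 numbered 1 to 4 with 1 pup left out, and by the methods' test they were *Ccn1* and *Plod1*. The median log2 difference of the matrix genes ran from -0.0308 (without LBW 1) to 0.0439 (without LBW 2). Intervals inside 1.5-fold, a count chosen after seeing the data, numbered 25, compared to 22 by the methods' test and 20 to 24 with 1 pup left out. Among the 65 genes followed, differences that were not called changed sign in 14 genes. With 1 pup left out, they ran from -0.0348 to 0.1993 for *Lamb2*, -0.0167 to 0.2396 for *Plod3*, -0.1186 to 0.0134 for *Dcn*, -0.2163 to 0.1088 for *P4ha1*, -0.0310 to 0.4359 for *Lama3*, -0.1927 to 0.0838 for *Col5a3*, -0.0800 to 0.0148 for *Bgn*, -0.0938 to 0.1063 for *Thbs1*, -0.0792 to 0.0421 for *Mgp*, -0.0885 to 0.1335 for *Loxl1*, -0.0377 to 0.0720 for *P4hb*, -0.0460 to 0.0233 for *Pcolce*, -0.2024 to 0.0805 for *Sdc1* and -0.0567 to 0.0633 for *Tgfb1*. Quantile normalization turned *Thbs1* (0.0059), *Mgp* (0.0089) and *Pcolce* (0.0089), centring on the array median turned *Loxl1* (-0.0085), and array weights turned *Mgp* (0.0100), *Sdc1* (0.0187) and *Tgfb1* (-0.0073). The causes were not tested. Over all settings, 945 values kept direction and call, 52 lost a call, 7 gained one and 36 changed sign.

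Pups with the same replicate number correlated at 0.0874, 0.104 and 0.0552 in their deviations from the group means, so the numbers were not taken as pairs, although each pup correlated best with its own number. With the replicate number as a block, 1230 features were called, 1069 of them also without it, and *Efemp1* remained the only matrix gene called.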
